A study of Mus musculus with 4 samples.

Results

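The genes described here mostly encode nuclear subunits of the oxidative phosphorylation machinery of the mitochondrion. They were taken by symbol from the gene list of the deposited matrices (Ndufa, Ndufb, Ndufc, Ndufs and Ndufv, Sdh, Uqcr, Cox4 to Cox8, and Atp5), without the Ndufaf assembly factors, Cox8b and Cox7a1. The rule gave 87 of 31053 genes. Of these, 84 were measured, meaning that they had at least 20 unique molecular identifiers (UMIs, 1 per captured RNA molecule) over the 4 libraries. By symbol, 38 belonged to complex I, 8 to complex II, 8 to complex III, 16 to complex IV and 17 to complex V, and they lay on 19 chromosomes with 3 of them on the X chromosome. The complex II genes by symbol include Sdhaf1, Sdhaf2, Sdhaf3 and Sdhaf4, which encode assembly factors and not subunits. All values for complex II below include them, unlike those for complex I, where the Ndufaf factors were left out. The 3 genes that were not measured were Cox7b2, Cox8c and a second identifier of Atp5o.

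The study asked how loss of fatty acid synthase in adipocytes alters the other cells of inguinal white adipose tissue, the subcutaneous fat pad of the mouse. Stromal vascular cells, which are the tissue's cells without the floating mature adipocytes, were pooled from 7 control mice of the strain C57BL/6 and, separately, from 8 iAdFASNKO mice, in which fatty acid synthase is deleted inducibly in adipocytes. Each pool was separated with magnetic beads into lineage-positive cells (Lin+, described in the labels as mostly immune) and the remaining stromal cells (Lin-), and each fraction gave 1 droplet library that reads the 3′ end of transcripts. Each genotype and fraction was therefore a single library of pooled animals, so that genotype, library and pool cannot be told apart, and no test was possible. The labels used here give strain for the control mice only, while age, sex and the inducing drug were not given in the sources used here.

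Oxidative phosphorylation couples the oxidation of NADH and succinate to the synthesis of ATP. Complex I (NADH dehydrogenase) and complex II (succinate dehydrogenase) pass electrons to ubiquinone, complex III hands them to cytochrome c, complex IV (cytochrome c oxidase) reduces oxygen, and complex V (ATP synthase) uses the resulting proton gradient. Every complex except complex II combines nuclear subunits with a few encoded by mitochondrial DNA. In adipose tissue this machinery is best known from thermogenic adipocytes, where uncoupling releases the gradient as heat, but every nucleated stromal cell uses it.

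Several subunits exist as alternative forms whose relative use differs between tissues, and Ndufa4l2 and Cox4i2 are described by cell class further on. Because 3′ reads must tell such relatives apart, a 90-base stretch of their coding sequences was compared. It is the first 90 bases of the longest ungapped block in the alignment of each pair, and was not chosen for similarity. Positions that differ within a set are in capitals. The stretches were read 5′ to 3′ from the GENCODE M21 transcripts, with positions counted from the A of the start codon. Ndufa4 (chr6:11900292-11907497, minus strand) and Ndufa4l2 (chr10:127514967-127517154, plus strand) keep a complex I symbol, although the Ndufa4 protein is now known as a subunit of complex IV.
Ndufa4: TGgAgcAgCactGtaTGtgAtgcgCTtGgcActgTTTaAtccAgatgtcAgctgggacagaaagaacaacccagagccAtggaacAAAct
Ndufa4l2: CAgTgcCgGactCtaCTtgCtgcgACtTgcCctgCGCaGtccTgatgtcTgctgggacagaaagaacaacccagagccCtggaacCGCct
These stretches are coding bases 81 to 170 of Ndufa4 and 96 to 185 of Ndufa4l2, and differ at 23 positions. Cox4i1 (chr8:120668222-120674207, plus strand) and Cox4i2 (chr2:152754173-152765037, plus strand) encode the common and the hypoxia-associated form of subunit 4 of cytochrome c oxidase.
Cox4i1: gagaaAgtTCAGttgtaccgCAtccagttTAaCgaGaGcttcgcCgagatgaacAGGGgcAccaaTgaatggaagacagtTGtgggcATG
Cox4i2: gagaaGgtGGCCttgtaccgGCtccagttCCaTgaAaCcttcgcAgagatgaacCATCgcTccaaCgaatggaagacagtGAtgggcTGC
These are coding bases 229 to 318 and 238 to 327, with 24 differing positions. Over the aligned coding sequences, identity was 68.6% for Ndufa4 and Ndufa4l2 and 69.8% for Cox4i1 and Cox4i2. The 3 genes for the c subunit of ATP synthase (Atp5g1, Atp5g2 and Atp5g3), which encode the same mature protein behind different import signals, were 70.7% to 76.7% identical. Identity was 66.6% for Cox6a1 and Cox6a2, 65.4% for Cox6b1 and Cox6b2 and 69.9% for Cox7a2 and Cox7a2l. Positions refer to the mouse assembly GRCm38, the build (mm10) named in the submitters' processing notes.

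Promoters of respiratory genes are known for binding sites of nuclear respiratory factor 1 (NRF1). The motif GCGCA, any base, GCGC was searched on both strands in the 250 bases before each start site. A gene symbol counted when any of its promoters held the motif. It was present in 13 of the 69 member symbols with a RefSeq promoter, or 18.8%, beside 4.23% of the 27025 symbols of all genes. 4 windows of the RefSeq table (GRCm38.p6) are shown, written on the gene's strand with the motif in capitals. Atp5k, Ndufa5 and Sdhd are named in several comparisons below and Atp5g2 as a paralog. The other members with the motif are not shown.
Atp5k, chr5:108434400-108434489, minus strand: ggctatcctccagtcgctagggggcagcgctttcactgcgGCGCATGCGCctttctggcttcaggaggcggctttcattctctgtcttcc
Ndufa5, chr6:24527667-24527756, minus strand: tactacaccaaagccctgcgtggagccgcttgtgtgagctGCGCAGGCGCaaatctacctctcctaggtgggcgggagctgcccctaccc
Sdhd, chr9:50603879-50603968, minus strand: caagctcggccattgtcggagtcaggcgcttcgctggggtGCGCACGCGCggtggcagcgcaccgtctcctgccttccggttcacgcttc
Atp5g2, chr15:102671048-102671129, minus strand: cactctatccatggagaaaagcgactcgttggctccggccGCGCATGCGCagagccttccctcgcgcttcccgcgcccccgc
The other motifs searched were near the share over the symbols of all genes. CCGGAAGT, a GABPA site, was in 4.35% of member symbols and 3.23% of all. CCAAT was in 42.0% and 37.5%. The hypoxia response core ACGTG was in 18.8% and 18.5%. These matches are descriptions of letters in a window and were not related to the expression values.

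The 4 libraries held 3661 to 6133 barcodes, beside the approximately 6000 cells per condition that the labels state, and 21622291 to 33016494 UMIs. After filtering, 2922 to 4494 cells were retained, with a median of 9138 UMIs in Lin- control, 4206 in Lin- iAdFASNKO, 5362 in Lin+ control and 3339 in Lin+ iAdFASNKO. Cells were assigned to classes by marker genes that include no member of the module, which placed 86.96% to 91.65% of them, and every marker of each compared class had UMIs in it. Classes with at least 50 cells in both genotypes were compared: progenitor-like (fibroblastic), pericyte or smooth muscle-like (called mural-like below), blood endothelial-like and Schwann-like cells in Lin-, and progenitor-like, B-like and T-like cells in Lin+. Progenitor-like cells were 1722 of the 2922 retained cells in Lin+ control and 1670 of 4494 in Lin+ iAdFASNKO. Pairs of libraries shared 109 to 170 barcode sequences. The 5 erythroid markers summed to 6038 and 12533 CPM (a gene's UMIs per 1000000 UMIs of the class) in control and iAdFASNKO Lin+ cells, against 22.6 and 16.5 CPM in Lin-. Fasn itself, whose deletion is directed by design at adipocytes that these libraries do not sample, was at 37.8 CPM in Lin- control, 24.8 in Lin- iAdFASNKO, 36.2 in Lin+ control and 21.6 in Lin+ iAdFASNKO, and 3′ reads need not cover the deleted part. All intervals below are exact 95% intervals that cover counting error only, not the spread between animals.

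Mural-like cells devoted the largest share of their RNA to the module among the compared classes. Members made up 2.76% (2.74 to 2.78) of their UMIs in control and 3.32% (3.30 to 3.34) in iAdFASNKO. Blood endothelial-like cells followed with 1.72% (1.69 to 1.74) and 1.82% (1.79 to 1.84), and Schwann-like cells had 1.58% (1.52 to 1.63) and 1.78% (1.74 to 1.83). Lin- progenitor-like cells had 1.41% (1.40 to 1.41) and 1.53% (1.52 to 1.53). In the Lin+ fraction the shares were 1.42% (1.39 to 1.44) and 1.32% (1.30 to 1.33) for T-like cells, 1.26% (1.26 to 1.27) and 1.08% (1.08 to 1.09) for progenitor-like cells and 1.06% (1.04 to 1.08) and 1.10% (1.09 to 1.11) for B-like cells. Counting error did not separate T-like from Lin- progenitor-like cells in control, nor blood endothelial-like from Schwann-like cells in iAdFASNKO. These are shares of RNA, so a cell with little RNA and a cell with a lot can have the same share.

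**Figure D1:**
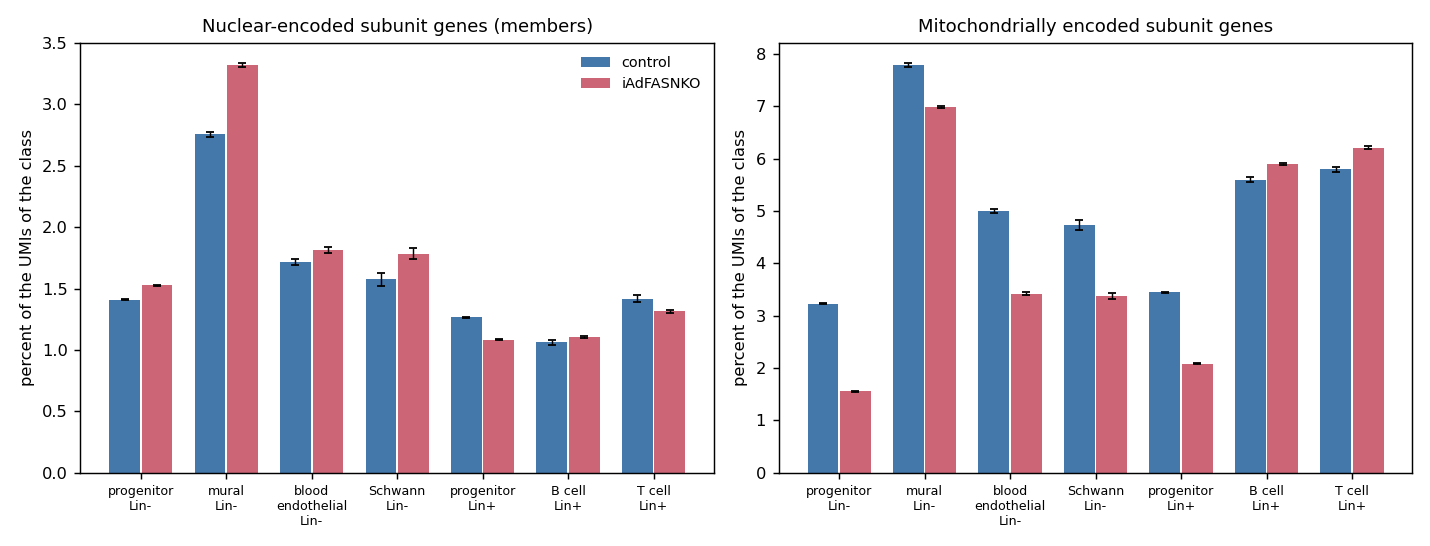
Percent of the UMIs of each compared class that came from the nuclear members (left) and from the 13 mitochondrially encoded subunits (right), as bars for the control (blue) and iAdFASNKO (red) library, 1 library each, with exact 95% counting intervals. Mural-like cells stand highest in both panels, at 2.76% and 3.32% for the members, and Lin+ progenitor-like cells show the largest decrease of the members, from 1.26% to 1.08%.

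The mural-like class contained mainly cells with smooth muscle transcripts. Myh11, the smooth muscle myosin heavy chain, had a UMI in 288 of 298 control and 913 of 923 iAdFASNKO cells. The pericyte marker Kcnj8 had a UMI in 10.4% and 2.82% of the cells, Abcc9 in 24.8% and 12.03%, and Rgs5 in 25.5% and 15.8%. These shares were not adjusted for depth. By level, Kcnj8 was at 15.95 and 7.99 CPM, Abcc9 at 53.7 and 48.9 CPM and Rgs5 at 329.5 and 263.5 CPM. Cspg4, another marker of this class, was at 263.8 and 269.9 CPM. Sequencing depth also differed, with a median of 7852 UMIs per control cell and 4338 per iAdFASNKO cell, and the part of these shifts in the values below was not tested.

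Relative to Lin- progenitor-like cells of the same library, most of the module was higher in mural-like cells. In control, 67 of 83 measured members were at least 1.5-fold higher, beside 27.0% of all genes, and in iAdFASNKO 69 of 83 were, beside 22.2%. The summed module was 1.96-fold (1.94 to 1.97) higher in control and 2.18-fold higher in iAdFASNKO. In control, 32 of 38 complex I genes, all 8 measured complex III genes and 4 of 8 complex II genes passed that size. The complex II list is not like the others, since it includes the Sdhaf assembly factors. The 13 subunits encoded by mitochondrial DNA were 2.41-fold higher in control and 4.49-fold higher in iAdFASNKO, whereas cytosolic ribosomal proteins were at 0.795 and 0.671 of the progenitor level. Sdhaf4, an assembly factor of succinate dehydrogenase that the symbol rule includes, was the only member at least 1.5-fold lower. It had 16.3 against 27.1 CPM in control and 13.2 against 30.2 CPM in iAdFASNKO. Of all genes, 3390 of 12761 in control and 3993 of 12422 in iAdFASNKO were at least 1.5-fold lower.

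**Figure D2:**
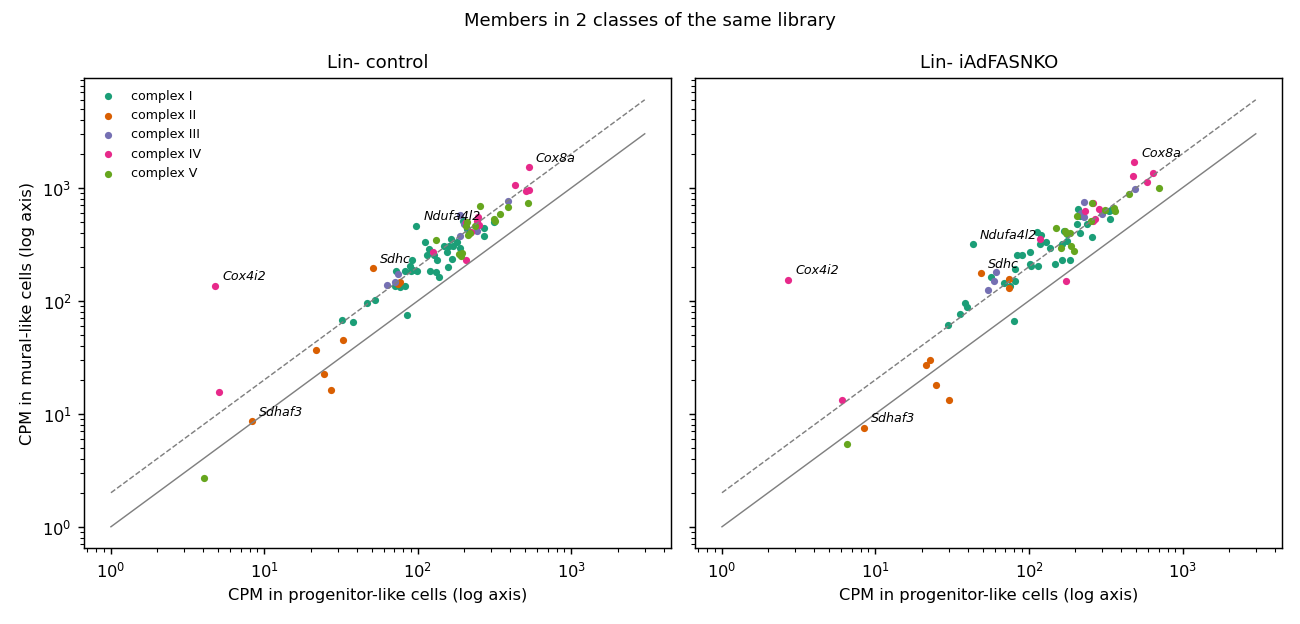
Each point is 1 measured member, colored by complex, with its level in Lin- progenitor-like cells on the horizontal axis and in mural-like cells on the vertical axis (CPM, log axes), for the control library on the left and the iAdFASNKO library on the right; the solid line marks equal levels and the dashed line a 2-fold higher level in mural-like cells. Most points lie above the solid line in both libraries, and Cox4i2 and Ndufa4l2 lie farthest above it.

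A smaller share of members than of all genes passed a 2-fold contrast between the classes of a library, a difference that was not tested. The classes with at least 50 cells were 4 in Lin- control, 6 in Lin- iAdFASNKO (with lymphatic endothelial-like and T-like cells), 4 in Lin+ control (with macrophage-like cells) and 3 in Lin+ iAdFASNKO, so these counts were not compared between libraries. In Lin- control, 28 of 80 members had a highest class at least 2-fold above the median of the other classes, beside 55.8% of all genes, and in Lin- iAdFASNKO 39 of 76 did, beside 67.3%. With at least 100 UMIs in the highest class, 26 of 76 and 36 of 68 did, beside 58.4% and 70.0%. Among genes with at least 100 UMIs in their highest class, the mural-like class was highest for 71 of 76 members in Lin- control, beside 31.5% of all genes. In Lin- iAdFASNKO it was highest for 62 of 68, beside 33.5%. The minimum applied in the highest class, so genes highest in a class with few UMIs were left out more often. The classes of Lin- control ranged from 214474 UMIs in Schwann-like to 22427961 in progenitor-like cells. The part of this in the shares was not tested. Among the core subunits with the largest contrast was Sdhc, a membrane anchor of complex II, with 193 CPM in mural-like cells and 50.8 CPM in progenitor-like cells of control, and 175 and 48.8 CPM in iAdFASNKO. Cox8a, a small complex IV subunit, had 1510 CPM in mural-like cells and 525 CPM in progenitor-like cells of control. Ndufb9 of complex I had 509 CPM in control mural-like cells. Atp5b, the catalytic beta subunit of ATP synthase, had 684 CPM there and 255 CPM in progenitor-like cells.

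In Lin+, 3 of 77 members in Lin+ control, beside 61.7% of all genes, and 2 of 82 in Lin+ iAdFASNKO, beside 49.5%, reached 2-fold over the median of the other classes. With at least 100 UMIs these were 1 of 54, beside 67.4%, and 0 of 76, beside 49.2%. T-like cells were the highest class for 30 of 54 members in control, beside 10.7% of all genes, and 48 of 76 in iAdFASNKO, beside 18.3%. Progenitor-like cells were highest for 23 of 54 members in control, beside 71.2% of all genes. The minimum of 100 UMIs again applied in the highest class, which favors classes with many UMIs. Control T-like cells held 808857 UMIs and progenitor-like cells 14679540, and the part of this in the shares was not tested. Cox5a, a structural subunit of complex IV, was at 218 CPM in T-like and 100 CPM in progenitor-like control cells, and at 184 and 70.4 CPM in iAdFASNKO. Cox7a2l, which encodes a protein involved in assembling complexes III and IV into supercomplexes, was at 352 and 221 CPM in T-like and progenitor-like control cells. Ndufs5 ran the other way, with 123 CPM in progenitor-like and 72.0 CPM in B-like control cells.

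2 alternative forms, Ndufa4l2 and Cox4i2, had their highest levels among the compared classes in mural-like cells, whereas Cox7a2l was higher in blood endothelial-like cells of control (441 CPM) than in mural-like cells (230 CPM). Ndufa4l2, known as a hypoxia-inducible relative of Ndufa4, had 460 CPM in control mural-like cells and 315 CPM in those of iAdFASNKO. It was at 97.0 and 43.1 CPM in Lin- progenitor-like cells and at 10.1 and 7.57 CPM in Lin+ progenitor-like cells. Blood endothelial-like cells had 2 UMIs in control and 1 in iAdFASNKO, Schwann-like and Lin+ T-like cells had 0 in both genotypes, and B-like cells had 0 and 3. After each cell was thinned to 2000 UMIs, 56.1% of control and 40.8% of iAdFASNKO mural-like cells held an Ndufa4l2 UMI, against 77.2% and 60.5% before thinning. For Lin- progenitor-like cells these shares were 16.8% and 6.85% thinned, and 41.4% and 17.3% before. Schwann-like cells gave 0 of 60 and 0 of 57 thinned cells, with upper limits of 5.96% and 6.27%, and 15 and 144 of them were too shallow to thin. The part of free RNA in the shares of any class was not tested.

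Cox4i2 was narrower still. In mural-like cells it had 135 CPM in control and 153 CPM in iAdFASNKO, and in Lin- progenitor-like cells it was at 4.77 and 2.70 CPM. Thinned shares were 22.2% and 24.1% of mural-like cells and 0.687% and 0.300% of Lin- progenitor-like cells. The unthinned shares were 56.4% and 44.2% of mural-like and 4.24% and 1.27% of progenitor-like cells. Its common counterpart Cox4i1 was at 963 and 1114 CPM in mural-like cells and 532 and 586 CPM in Lin- progenitor-like cells, and was present in every class. The genotypes thus lay apart in Ndufa4l2 but not, beyond counting error, in Cox4i2 of mural-like cells, whose ratio was 1.13 (0.993 to 1.29).

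Cox6a2, the muscle form of subunit 6a, had 117 UMIs in 31 cells of all 4 libraries, and 111 of these UMIs lay in 26 cells outside the compared classes. Cells with at least 3 skeletal muscle markers held 28 of the UMIs, in 3 of the 4 cells of that kind. Another 65 UMIs lay in 11 of the 53 retained cells with a UMI of Siglech, a gene known from plasmacytoid dendritic cells. The largest number in a single cell was 19.

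The comparison of iAdFASNKO with control, made within each class and fraction, gave small summed differences of opposite sign in the 2 progenitor-like populations. Values are the iAdFASNKO level over the control level. In Lin- the summed module stood at 1.08 (1.08 to 1.09) in progenitor-like, 1.204 (1.193 to 1.215) in mural-like, 1.06 (1.04 to 1.08) in blood endothelial-like and 1.13 (1.09 to 1.18) in Schwann-like cells. In Lin+ it stood at 0.857 (0.850 to 0.863) in progenitor-like, 1.04 (1.01 to 1.06) in B-like and 0.928 (0.909 to 0.948) in T-like cells. The 2 Lin+ populations below 1 and all 4 Lin- populations above 1 come from 2 pairs of libraries, so that the contrast between fractions rests on 1 library of each kind. Markers of other cell types moved with genotype in the 2 largest Lin- classes. In mural-like cells the 5 epithelial markers summed to 273.9 CPM in control, with 3 of them seen, and 0 in iAdFASNKO. The 4 mesothelial markers summed to 144.7 and 1.65 CPM there and the 6 B cell markers to 174.7 and 1.18 CPM, where a single B cell marker gave all UMIs of the control. In Lin- progenitor-like cells the epithelial markers summed to 108.7 and 1.77 CPM, the mesothelial to 55.1 and 5.25, the B cell to 49.8 and 0.540, the 5 thermogenic adipocyte markers to 74.4 and 19.6, and the 5 proliferation markers to 11.6 and 47.3 CPM. The epithelial UMIs of control lay in 4 of 298 mural-like and 39 of 2194 progenitor-like cells, and up to 495 and 822 of them in a single cell. Without every cell with an epithelial UMI, an alternative chosen after seeing the data, the summed module was at 1.202 in mural-like and 1.099 in Lin- progenitor-like cells, while the part of the other markers was not tested.

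**Figure D3:**
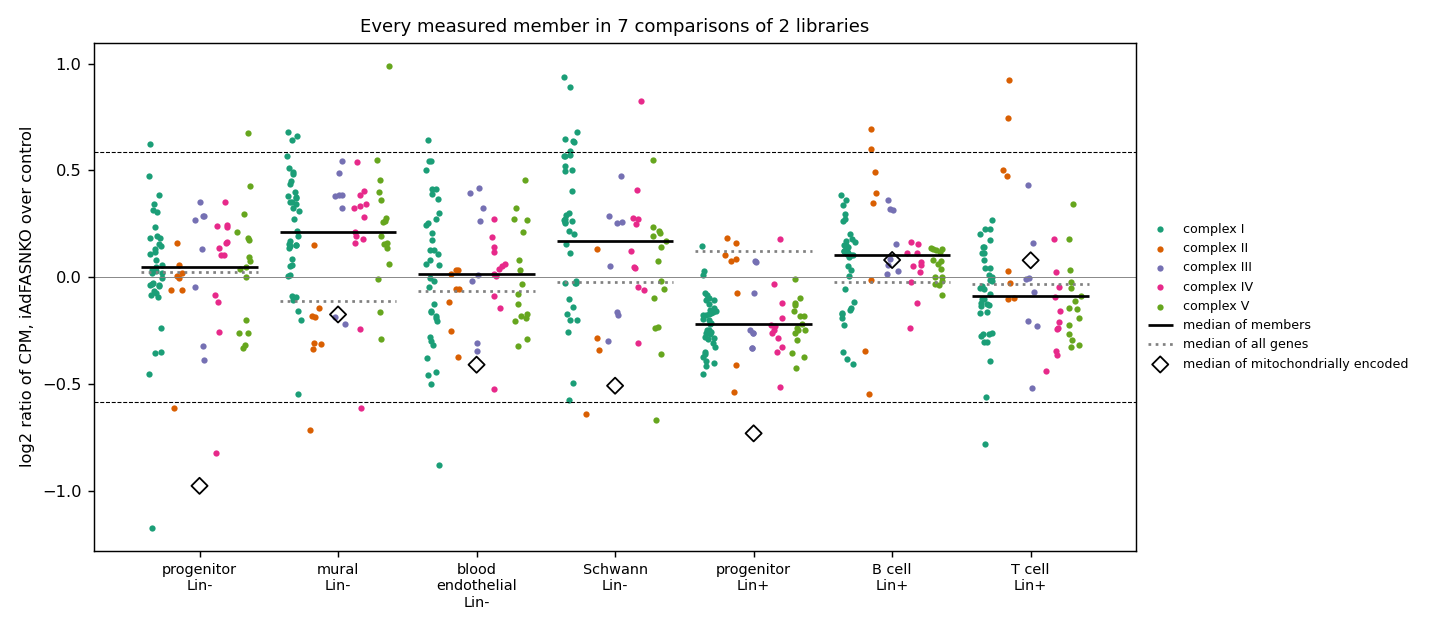
Log2 of the CPM ratio of iAdFASNKO over control for every measured member, colored by complex, in each of the 7 comparisons; thick bars are the member medians, dotted bars the medians of all genes, diamonds the medians of the mitochondrially encoded subunits, and dashed lines the 1.5-fold limits. The median member lies at 0.21 in mural-like and -0.22 in Lin+ progenitor-like cells, where the median of all genes lies at -0.11 and 0.12.

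In Lin- progenitor-like cells, 2194 control and 2278 iAdFASNKO cells were summed, with median depths of 10383 and 5292 UMIs. Of 83 measured members, 2 were at least 1.5-fold higher, beside 10.9% of all genes, and 3 were at least 1.5-fold lower, beside 8.56%. With at least 100 UMIs required, which suits genes as abundant as these, the counts were again 2 and 3 of 83, beside 6.49% and 6.53% of all genes. The median member differed by 0.05 on the log2 scale, beside 0.02 over all genes. Ndufa3, an accessory subunit of complex I, went from 167 to 258 CPM, or 1.54 (1.47 to 1.62). Atp5s, a coupling factor of ATP synthase, was at 4.06 and 6.48 CPM. Ndufa4l2 had the smallest ratio, 0.444 (0.404 to 0.488), with 97.0 CPM falling to 43.1. Cox4i2 was at 0.566 (0.375 to 0.836) and Sdhd, the second membrane anchor of complex II, at 0.656 (0.569 to 0.754), from 32.6 to 21.4 CPM.

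By complex, the Lin- progenitor-like sums were 1.16 (1.14 to 1.18) for complex III, 1.09 for both complex I and complex IV and 1.05 for complex V, whereas complex II was at 0.961 (0.924 to 1.00). Next in size after Ndufa3 were Ndufc1 at 1.39, Atp5e at 1.35 and Ndufa5 at 1.31, which are a complex I, a complex V and a complex I subunit. Ndufv1, which carries the NADH-binding site of complex I, was at 0.730 (0.656 to 0.812), and Uqcrc1, a core protein of complex III, at 0.766. Both lay inside the 1.5-fold limit.

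With the limit of 10% mitochondrial UMIs, mural-like cells had the largest summed difference. That limit kept 298 control and 923 iAdFASNKO mural-like cells, of 662 and 1089 without it. Without it the summed ratio was 1.13, so this rank depends on the limit. With the limit, 63 of 83 members lay above 1. Still, 4 were at least 1.5-fold higher, beside 4.27% of all genes, and 2 at least 1.5-fold lower, beside 14.4%. Among members with at least 100 UMIs, 3 of 79 were higher, beside 1.73% of all genes, and 2 lower, beside 7.82%. The median member was 0.21 higher on the log2 scale, while the median of all genes was 0.11 lower. Relative to that median of all genes, 12 members were at least 1.5-fold higher, beside 6.44% of all genes, and 1 lower, beside 10.4%. Ndufa5 went from 350 to 562 CPM, or 1.60 (1.49 to 1.73). Ndufa3 was at 232 and 367 CPM, or 1.58 (1.44 to 1.74), and Ndufc1 was at 306 and 478 CPM, or 1.56 (1.44 to 1.70). Atp5s also passed the size, but on 30 UMIs in all, with an interval of 0.825 to 5.48. On the lower side were Sdhd, with 44.7 and 27.3 CPM, or 0.610 (0.467 to 0.796), and Cox7a2l, with 230 and 151 CPM, or 0.655 (0.585 to 0.734). Ndufa4l2 was at 0.686 (0.634 to 0.742), just inside the limit.

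In mural-like cells, as in Lin- progenitor-like cells, complex III had the highest sum and complex II the lowest. Complex III was at 1.283 (1.249 to 1.318), complex I at 1.22, complex IV at 1.21 and complex V at 1.16, while complex II was at 0.911 (0.854 to 0.972). Atp5k, subunit e of ATP synthase, was at 498 and 728 CPM, or 1.46 (1.37 to 1.56), and Uqcrq of complex III at 376 and 548 CPM, or 1.46. Atp5b went the other way, with 684 and 560 CPM, or 0.818 (0.769 to 0.870).

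Blood endothelial-like cells, 98 in control and 187 in iAdFASNKO, had 1 of 81 members at least 1.5-fold higher, beside 8.98% of all genes, and 1 lower, beside 12.7%. Those with at least 100 UMIs gave 1 and 1 of 73, beside 5.27% and 6.81%. The higher one was Ndufa3, with 216 and 336 CPM, or 1.56 (1.32 to 1.85). Cox7a2l was at 441 and 307 CPM, or 0.696 (0.605 to 0.801). Complex III was again highest at 1.18 and complex IV was at 1.00 (0.965 to 1.04).

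Schwann-like cells were few and shallow, with 75 and 201 cells at medians of 2783 and 1543 UMIs, and 75 members were measured. Of these, 8 were at least 1.5-fold higher, beside 13.8% of all genes, and 2 lower, also beside 13.8%. Of the 46 with at least 100 UMIs, 4 were higher, beside 6.31%, and 1 lower, beside 7.85%. Ndufa3 was at 140 and 268 CPM, or 1.92 (1.26 to 2.99), and Ndufa4 at 168 and 311 CPM, or 1.86 (1.27 to 2.78). Cox7b was at 97.9 and 173 CPM on 85 UMIs in all. The others above the limit, Ndufv3, Ndufs8, Ndufb11, Ndufs1 and Ndufb4, had ratios of 1.504 to 1.604. Atp5d, the delta subunit of ATP synthase, was at 275 and 173 CPM, or 0.630 (0.435 to 0.913). Sdhc was at 0.642 (0.329 to 1.26), which counting error does not separate from 1.

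Lin+ progenitor-like cells, 1722 in control and 1670 in iAdFASNKO, had 0 of 82 members at least 1.5-fold higher, beside 13.0% of all genes, and 0 lower, beside 5.04%. With at least 100 UMIs both counts were again 0 of 82, beside 7.76% and 3.44% of all genes. The whole module lay lower by a small amount: 71 members were below 1 and 11 above it, with a median of -0.22 on the log2 scale while the median of all genes was 0.12. Relative to that median, 2 members were at least 1.5-fold lower, beside 7.07% of all genes, and 0 higher, beside 9.20%. Atp5k was at 192 and 143 CPM, or 0.745 (0.700 to 0.793). Uqcr11 of complex III was at 183 and 145 CPM, or 0.794, and Uqcrq at 178 and 142 CPM, or 0.796. Complex I, III, IV and V were at 0.849 to 0.856, and complex II alone was near 1, at 1.02 (0.977 to 1.07). Within it Sdha, the catalytic flavoprotein, was at 89.7 and 102 CPM, or 1.14 (1.05 to 1.23), and Sdhd at 33.2 and 22.9 CPM, or 0.690 (0.590 to 0.806).

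The progenitor-like populations of the 2 fractions were not of one kind. Pi16, a marker of an early interstitial progenitor state, had a UMI in 7.11% of control and 10.8% of iAdFASNKO Lin- cells, but in 53.9% and 67.9% of Lin+ cells. Dpp4, a second such marker, was seen in 7.11% and 11.3% of Lin- and in 50.3% and 64.7% of Lin+ cells. The share of cells with a Pi16 UMI thus moved with genotype as well as with fraction, but was not adjusted for depth. The Pi16 level was 62.0 and 71.9 CPM in Lin- and 1343 and 1261 CPM in Lin+. Dpp4 was at 18.1 and 46.7 CPM in Lin- and at 254.9 and 445.6 CPM in Lin+. The part of these shifts in the module's values was not tested. Depth also moved, from a median of 8256 to 5720 UMIs in Lin+. When only cells of 2000 to 8000 UMIs were used, the summed ratios were 1.14 in Lin- and 0.771 in Lin+. With every cell weighted equally they were 1.03 and 0.818, and the median member in Lin- then lay at -0.014 on the log2 scale, on the other side of 0.

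B-like cells, 319 and 1281, had 2 of 79 members at least 1.5-fold higher, beside 10.4% of all genes, and 0 lower, beside 8.67%. At a minimum of 100 UMIs the counts were 2 and 0 of 77, beside 3.60% and 3.27%. Both were complex II genes by symbol: the assembly factor Sdhaf1, with 19.3 and 31.2 CPM, or 1.62 (0.944 to 2.97), and Sdhc, with 24.4 and 37.1 CPM, or 1.52 (0.939 to 2.59). Neither interval excludes 1. Sdhc passed the size in opposite directions in Schwann-like and B-like cells, on 40 and 170 UMIs.

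T-like cells, 209 and 675, had 2 of 79 members at least 1.5-fold higher, beside 11.2% of all genes, and 1 lower, beside 12.4%. With at least 100 UMIs, 0 of 75 were higher, beside 3.52%, and 1 lower, beside 7.69%. Sdhaf1 was at 14.8 and 28.1 CPM, or 1.90 (1.03 to 3.81), and Sdhaf4 at 11.1 and 18.6 CPM, or 1.68 (0.823 to 3.85). Ndufv1 was at 54.4 and 31.7 CPM, or 0.583 (0.404 to 0.852). Complex IV was lowest at 0.898 (0.862 to 0.935), and complex II was at 1.14 (0.974 to 1.34).

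Across the 7 comparisons a few members recurred. Ndufa3 (chr7:3617373-3620327, plus strand) was at least 1.5-fold higher in all 4 Lin- classes and stood at 0.822 in Lin+ progenitor-like, 0.901 (0.750 to 1.09) in B-like and 0.832 in T-like cells. Atp5k was at 1.23, 1.46, 1.37 and 1.15 in the Lin- progenitor-like, mural-like, blood endothelial-like and Schwann-like classes and at 0.745, 1.05 and 0.878 in the Lin+ progenitor-like, B-like and T-like classes. Sdhd was below 1 in progenitor-like cells of both fractions, mural-like, Schwann-like, B-like and T-like cells, with 0.415 in Schwann-like cells on 12 UMIs, and at 1.03 (0.559 to 1.90) in blood endothelial-like cells. The Lin- comparisons share their 2 libraries, as do the Lin+ comparisons, so recurrence within a fraction is not repeated evidence.

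**Figure D4:**
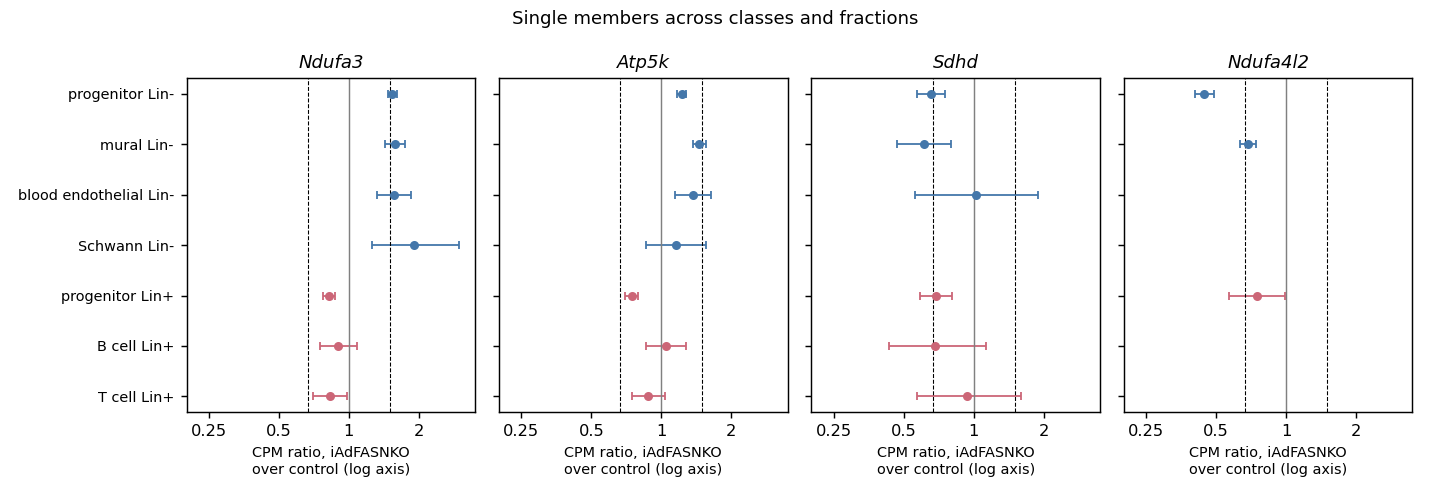
CPM ratio of iAdFASNKO over control (log axis) for Ndufa3, Atp5k, Sdhd and Ndufa4l2 in each compared class with at least 20 UMIs of the gene; bars are exact 95% counting intervals, blue is Lin- and red Lin+, and dashed lines mark the 1.5-fold limits. Ndufa3 lies above 1 in all 4 Lin- classes and below 1 in the 3 Lin+ classes, where the interval of B-like cells includes 1.

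The subunits with a paralog were also set side by side. In Lin- progenitor-like cells Atp5g2 was at 236 and 252 CPM, or 1.07 (1.02 to 1.12), and in Lin+ progenitor-like cells at 225 and 198 CPM, or 0.882 (0.835 to 0.931). Ndufa4 itself was at 270 and 336 CPM in Lin- progenitor-like cells, or 1.245 (1.198 to 1.295), opposite to Ndufa4l2 at 0.444. In mural-like cells Ndufa4 was at 375 and 527 CPM, or 1.41 (1.30 to 1.52), opposite to Ndufa4l2 at 0.686.

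The 13 subunits encoded by mitochondrial DNA, summed, lay on the other side of 1 from the nuclear sum in the 4 Lin- classes and in T-like cells, and on the same side in Lin+ progenitor-like and B-like cells. They were at 0.481 in Lin- progenitor-like, 0.897 in mural-like, 0.684 in blood endothelial-like, 0.714 in Schwann-like and 0.604 in Lin+ progenitor-like cells, and at 1.05 in B-like and 1.07 in T-like cells. In Lin- progenitor-like cells they fell from 3.23% to 1.56% of all UMIs, while the nuclear module went from 1.41% to 1.53%. Without the limit on mitochondrial UMIs, an alternative chosen after seeing the data, the sums were 0.486 in Lin- progenitor-like, 0.682 in Lin+ progenitor-like and 0.742 in mural-like cells. That limit removed 519 and 330 barcodes of the Lin- control and iAdFASNKO libraries and 463 and 1327 of the Lin+ libraries.

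Glycolysis and the citrate cycle summed to below 1 in the 2 largest Lin- classes, while assembly factors and mitochondrial ribosomal proteins lay above 1, as the module did; differences between lists were not tested. In Lin- progenitor-like cells, the 14 measured glycolytic genes summed to 0.742 (0.728 to 0.755), with 3 at least 1.5-fold lower and 0 higher, and the 14 genes of the citrate cycle to 0.862, with 1 lower and 0 higher. In mural-like cells glycolysis was at 0.808 and the citrate cycle at 0.927, each with 1 gene lower and 0 higher. Assembly factors, which build the complexes, were at 1.11 in Lin- progenitor-like cells, with 2 of 42 higher and 4 lower, and at 1.10 in mural-like cells, with 2 higher and 5 lower. Mitochondrial ribosomal proteins, which translate the mitochondrially encoded subunits, were at 1.09 and 1.10 in these 2 classes, with 2 of 77 higher and 1 lower in each. Of all genes with at least 20 UMIs, 10.9% were higher and 8.56% lower in Lin- progenitor-like cells. In mural-like cells 4.27% were higher and 14.4% lower.

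In Lin+ progenitor-like cells glycolysis was at 0.874, the citrate cycle at 1.01, assembly factors at 0.9397, mitochondrial ribosomal proteins at 0.902 and cytosolic ribosomal proteins at 0.902, against 0.857 for the module. The carriers and electron shuttles, which include cytochrome c and the ADP/ATP carriers, were at 1.00 in both Lin+ and Lin- progenitor-like cells. Transcriptional regulators of the module were at 1.12 in Lin- and 1.04 in Lin+ progenitor-like cells, with 2 of 12 higher and 1 lower in Lin-, and 0 higher and 1 lower in Lin+. Of all genes with at least 20 UMIs, 10.9% were higher and 8.56% lower in Lin-, and 13.0% and 5.04% in Lin+. In B-like cells glycolysis was at 1.03 and the citrate cycle at 1.01, and in T-like cells they were at 0.787 and 0.871.

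Members with short transcripts differed from those with long ones. Across 83 members, the log2 ratio in Lin- progenitor-like cells and transcript length had a Spearman correlation of -0.50, and in mural-like cells it was -0.53 across 79. In Lin+ progenitor-like cells the sign was opposite, 0.50 across 82. Over all genes with at least 100 UMIs the correlations were 0.27, 0.19 and 0.32. The same log2 ratios also went with the members' level, at 0.46, 0.56 and -0.33, so that length and level cannot be told apart here. The median member transcript was 918 bases long in the Lin- progenitor-like comparison, beside 3220 bases over all genes. These correlations are descriptions across genes that share the same 2 libraries, depth and length-dependent capture, and genes are not independent replicates.

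**Figure D5:**
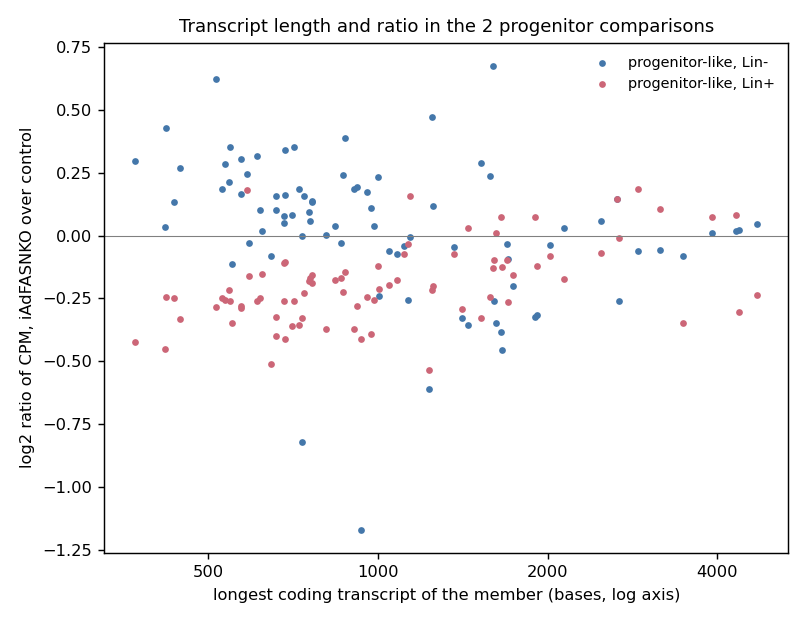
Log2 of the CPM ratio of iAdFASNKO over control against the length of the longest coding transcript (bases, log axis) for each member, in Lin- progenitor-like cells (blue) and Lin+ progenitor-like cells (red). Shorter members tend to lie higher in Lin- (Spearman -0.50) and lower in Lin+ (0.50).

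Lowering the number of cells a class needs from 50 to 30, also chosen after seeing the data, added 3 classes. Lymphatic endothelial-like cells in Lin- (37 and 82 cells) went from 1.57% to 1.64% of UMIs, or 1.05 (1.00 to 1.09), and 4 of 75 members were at least 1.5-fold higher, beside 10.3% of all genes, and 9 lower, beside 18.0%. Macrophage-like cells in Lin+ (95 and 40 cells) went from 1.19% to 0.950%, or 0.799 (0.757 to 0.842), and 22 of 74 members were at least 1.5-fold lower, beside 22.4% of all genes, while 0 were higher, beside 10.2%. Neutrophil-like cells in Lin+ (33 and 44 cells) had the smallest share of the classes given here, 0.637% and 0.781%, or 1.23 (1.08 to 1.39), and 5 of their 22 measured members were higher, beside 15.0% of all genes, and 0 lower, beside 26.8%.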

How the data were processed

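The deposited matrices hold raw UMI counts per gene and cell barcode, not normalized, and the authors made them with Cell Ranger 3.1.0 on mm10, per the submitters' processing notes, which also name Seurat 3.0; the matrix headers name software version 3.0.2. A matrix's genotype was taken from its name, and the fraction of each cell from the barcode tag that the labels assign to it. Kept cells had at least 300 genes, 500 UMIs and no more than 10% of UMIs from mitochondrial genes. A cell joined a class when it had UMIs of at least 3 markers and of 50% of the class's markers, and cells that met the gates of unrelated classes were left out; Scrublet's doublet calls (0.935% to 2.22% of cells) were compared as an alternative and not otherwise used.

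Counts were summed per class and library and divided by the class total (CPM). Ratios carry exact conditional binomial intervals, shares Clopper-Pearson intervals and levels exact Poisson intervals (95%). With 1 library per group no test was run: members are called past 1.5-fold by size, beside the same share over all genes with at least 20 UMIs. Named members were, per comparison, the 5 largest and 5 smallest ratios with at least 100 UMIs, the paralogs, the highest member per complex, the 8 most class-dependent members and those past the fold in opposite directions; others named were chosen after their values were seen, and a result for 1 named member is not reported here. The members and gene lists were chosen with earlier results of these data known. The ratio script was tested on simulated data. Alternatives were other cell filters, gates, minimum UMIs, folds, denominators, centring and depth windows. Analyses used Python 3.11.15, numpy 2.4.6, scipy 1.17.1, pandas 2.3.3 and scanpy 1.11.5. Sequences came from RefSeq (GRCm38.p6) and GENCODE M21.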

Additional observations from a re-analysis of the deposited data

Results flagged for a closer look

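The summed module moved in opposite directions in the progenitor-like cells of the 2 fractions, at 1.08 in Lin- and 0.857 in Lin+ (iAdFASNKO over control), and both intervals exclude 1. Among single members, Ndufa3 was at 1.54 in Lin- and 0.822 in Lin+, Ndufa2 at 1.23 and 0.818, Atp5k at 1.23 and 0.745, Uqcrq at 1.22 and 0.796 and Uqcr11 at 1.204 and 0.7942. In all, 34 of the 82 members with at least 100 UMIs in both populations had intervals on opposite sides of 1, or 41.5%, beside 5.01% of 10164 genes. All 34 lay above 1 in Lin-, a direction taken by 262 of all genes, or 2.58%. Intervals are narrower for abundant genes such as the members, so these shares are not on a like footing, and the difference was not tested. B-like cells stood at 1.04, opposite to T-like cells at 0.928 and Lin+ progenitor-like cells at 0.857. None of these differences between populations was tested, since each population had 1 library per genotype.

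Cox6a2 gave 111 UMIs in cells outside the compared classes, against 6 UMIs in 5 cells inside them.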

How the results depend on the processing

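No paired analysis was possible because each genotype and fraction had 1 library. The direction of the summed module ratio held in every class under every alternative run, while the number of members past 1.5-fold depended on the setting. The stricter cell filter left 18 control and 142 iAdFASNKO mural-like cells, 40 and 134 blood endothelial-like and 34 and 50 Schwann-like cells. It left 55 and 189 B-like and 58 and 113 T-like cells, so its values in all these classes rest on few cells. Depth limits the members under 100 UMIs, whose intervals are wide, and the cause of the shifts below was not tested. The removal of the mitochondrial limit and of cells with epithelial marker UMIs was chosen after seeing the data.

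Of members whose interval excluded 1, the stricter cell filter turned 9 of 57 in mural-like, 3 of 20 in T-like and 1 of 11 in Schwann-like cells, the looser filter turned 1 of 57 in mural-like cells, and equal weights and the window of 2000 to 8000 UMIs each turned 2 of 52 in Lin- progenitor-like cells. The median log2 ratio of members was 0.00028 in T-like and -0.029 in blood endothelial-like cells with mitochondrial, ribosomal and haemoglobin UMIs left out of the total, and -0.012 in blood endothelial-like and -0.014 in Lin- progenitor-like cells with cells weighted equally. Under the stricter cell filter Atp5g2 was at 0.850 in mural-like cells, Atp5g3 at 1.06 and Ndufa10 at 1.03 in T-like cells, and the mitochondrially encoded sum at 0.933 in B-like cells.

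Under the stricter cell filter, the summed ratio was 1.08 in B-like, 0.972 in T-like, 1.08 in mural-like and 1.10 in Lin- progenitor-like cells. With mitochondrial, ribosomal and haemoglobin UMIs left out of the total, the summed ratio was 1.07 in B-like, 0.986 in T-like, 1.03 in blood endothelial-like, 1.18 in mural-like, 0.831 in Lin+ progenitor-like and 1.07 in Lin- progenitor-like cells. With 1 more marker in the gate, the summed ratio was 1.07 in Schwann-like, 0.897 in T-like and 1.09 in Lin- progenitor-like cells. Centred on the median of all genes, the summed ratio was 0.949 in T-like, 1.11 in blood endothelial-like, 1.30 in mural-like, 0.786 in Lin+ progenitor-like and 1.06 in Lin- progenitor-like cells. Under the looser cell filter, the summed ratio was 0.907 in T-like and 1.12 in mural-like cells. With cells weighted equally, the summed ratio was 0.954 in T-like, 1.03 in blood endothelial-like, 1.17 in mural-like, 0.818 in Lin+ progenitor-like and 1.03 in Lin- progenitor-like cells. In cells of 2000 to 8000 UMIs, the summed ratio was 0.975 in T-like, 0.771 in Lin+ progenitor-like and 1.14 in Lin- progenitor-like cells. Without the mitochondrial limit, the summed ratio was 0.898 in T-like and 1.13 in mural-like cells. Without cells with an epithelial marker UMI, the summed ratio was 0.962 in T-like and 1.099 in Lin- progenitor-like cells.

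Among the settings of this paragraph, shares over all genes were computed only for the centring and the minimum of 100 UMIs. The other counts of members therefore show dependence on the setting alone. At a limit of 25% in place of 50%, the number past the fold was 14 in B-like, 24 in Schwann-like, 14 in T-like, 21 in blood endothelial-like, 38 in mural-like, 18 in Lin+ progenitor-like and 17 in Lin- progenitor-like cells. With a minimum of 1 UMI, the number past the fold was 5 in B-like, 16 in Schwann-like, 7 in T-like, 4 in blood endothelial-like and 2 in Lin+ progenitor-like cells. Under the looser cell filter, the number past the fold was 1 in B-like and 3 in mural-like cells. Under the stricter cell filter, the number past the fold was 15 in B-like, 13 in T-like, 8 in blood endothelial-like, 13 in mural-like and 1 in Lin+ progenitor-like cells. With a minimum of 100 UMIs, the number past the fold was 5 in Schwann-like and 1 in T-like cells. Without the mitochondrial limit, the number past the fold was 5 in T-like and 3 in mural-like cells. Centred on the median of all genes, the number past the fold was 4 in blood endothelial-like, 13 in mural-like and 2 in Lin+ progenitor-like cells. With cells weighted equally, the number past the fold was 10 in blood endothelial-like and 3 in Lin+ progenitor-like cells. In cells of 2000 to 8000 UMIs, the number past the fold was 14 in blood endothelial-like, 11 in mural-like, 5 in Lin+ progenitor-like and 3 in Lin- progenitor-like cells.

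With mitochondrial, ribosomal and haemoglobin UMIs left out of the total, the share in percent was 1.56 in Lin+ control B-like, 1.68 in Lin+ iAdFASNKO B-like, 1.80 in Lin- control Schwann-like, 2.03 in Lin- iAdFASNKO Schwann-like, 2.25 in Lin+ control T-like, 2.21 in Lin+ iAdFASNKO T-like, 2.23 in Lin- control blood endothelial-like, 2.29 in Lin- iAdFASNKO blood endothelial-like, 3.36 in Lin- control mural-like, 3.96 in Lin- iAdFASNKO mural-like, 1.54 in Lin+ control progenitor-like, 1.28 in Lin+ iAdFASNKO progenitor-like, 1.68 in Lin- control progenitor-like and 1.80 in Lin- iAdFASNKO progenitor-like cells. In cells of 2000 to 8000 UMIs, the share in percent was 1.09 in Lin+ control B-like, 1.85 in Lin- iAdFASNKO Schwann-like, 1.33 in Lin+ control T-like, 1.30 in Lin+ iAdFASNKO T-like, 1.64 in Lin- control blood endothelial-like, 1.74 in Lin- iAdFASNKO blood endothelial-like, 2.71 in Lin- control mural-like, 3.30 in Lin- iAdFASNKO mural-like, 1.24 in Lin+ control progenitor-like, 0.959 in Lin+ iAdFASNKO progenitor-like, 1.28 in Lin- control progenitor-like and 1.46 in Lin- iAdFASNKO progenitor-like cells. Under the looser cell filter, the share in percent was 1.08 in Lin+ iAdFASNKO B-like, 1.26 in Lin+ iAdFASNKO T-like, 2.99 in Lin- control mural-like, 3.36 in Lin- iAdFASNKO mural-like and 1.26 in Lin+ control progenitor-like cells. Under the stricter cell filter, the share in percent was 1.15 in Lin+ iAdFASNKO B-like, 1.84 in Lin- iAdFASNKO Schwann-like, 1.46 in Lin+ control T-like, 1.42 in Lin+ iAdFASNKO T-like, 1.84 in Lin- iAdFASNKO blood endothelial-like, 2.43 in Lin- control mural-like, 2.64 in Lin- iAdFASNKO mural-like, 1.28 in Lin+ control progenitor-like, 1.09 in Lin+ iAdFASNKO progenitor-like, 1.40 in Lin- control progenitor-like and 1.54 in Lin- iAdFASNKO progenitor-like cells. With cells weighted equally, the share in percent was 1.08 in Lin+ iAdFASNKO B-like, 1.33 in Lin+ control T-like, 1.27 in Lin+ iAdFASNKO T-like, 1.75 in Lin- iAdFASNKO blood endothelial-like, 2.73 in Lin- control mural-like, 3.21 in Lin- iAdFASNKO mural-like, 1.29 in Lin+ control progenitor-like, 1.05 in Lin+ iAdFASNKO progenitor-like, 1.39 in Lin- control progenitor-like and 1.44 in Lin- iAdFASNKO progenitor-like cells. Without the mitochondrial limit, the share in percent was 1.08 in Lin+ iAdFASNKO B-like, 1.251 in Lin+ iAdFASNKO T-like, 2.96 in Lin- control mural-like, 3.35 in Lin- iAdFASNKO mural-like, 1.26 in Lin+ control progenitor-like and 1.08 in Lin+ iAdFASNKO progenitor-like cells. With 1 more marker in the gate, the share in percent was 1.67 in Lin- control Schwann-like, 1.47 in Lin+ control T-like and 1.54 in Lin- iAdFASNKO progenitor-like cells. Without cells with an epithelial marker UMI, the share in percent was 1.37 in Lin+ control T-like and 1.39 in Lin- control progenitor-like cells.

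No share over all genes was computed for the counts of this paragraph, so they show dependence on the setting alone. Under the stricter cell filter, the number at 2-fold over the other classes was 5 in Lin+ control, 4 in Lin+ iAdFASNKO, 14 in Lin- control and 16 in Lin- iAdFASNKO. With 1 more marker in the gate, the number at 2-fold over the other classes was 1 in Lin+ control. With cells weighted equally, the number at 2-fold over the other classes was 5 in Lin+ control. With mitochondrial, ribosomal and haemoglobin UMIs left out of the total, the number at 2-fold over the other classes was 7 in Lin+ control and 4 in Lin+ iAdFASNKO. In cells of 2000 to 8000 UMIs, the number at 2-fold over the other classes was 1 in Lin+ iAdFASNKO.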
